A study of Homo sapiens with 8 samples.

Results

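A set of 10 genes that p53 activates in DNA repair and metabolism, out of 19124 genes measured, was followed in colorectal cancer cells after knockdown of a ribosomal protein. They were C12orf5 (current symbol TIGAR), SESN1, DDB2, XPC, RRM2B, FDXR, POLH, TP53INP1, TP53I3 and AEN, chosen by gene symbol. All 10 were found once each, and all 10 passed the filter on low values, which asked for 1 RPKM or more on average across libraries. RPKM is the number of reads per kilobase of transcript, scaled to a fixed number of mapped reads. The deposited values carry this name but appear to scale with the number of exons too.

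The cells were of 2 lines, HCT116 and HT29, each established from human colorectal carcinomas and grown in RPMI medium. Each line received an siRNA against RPL9, RPL17 or RPL27, which encode proteins of the large ribosomal subunit, or a negative control siRNA (NC), at 15 nM with a lipid reagent. Total RNA was taken 48 h later. There was 1 library for each of the 4 siRNAs in each line, 8 in all, so no siRNA was repeated within a line.

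p53 is a transcription factor that MDM2 keeps at a low level by marking it for degradation. Free ribosomal proteins such as RPL5 and RPL11 can bind MDM2 and release p53 when ribosome assembly is disturbed. Beside genes of cell cycle arrest and apoptosis, p53 activates genes that repair DNA, supply deoxynucleotides, copy past damaged bases, and adjust glycolysis, growth signalling and redox balance. The 10 genes stand for these branches.

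The knocked-down genes matched the labels. RPL9, RPL17 and RPL27 were at no more than 34.1% of their mean under the other two RPL siRNAs, and at 13.7% to 38.5% of NC. The RPL17 siRNA libraries also had less RPL27 than the RPL9 siRNA and NC libraries. For HCT116 the RPL27 values under RPL17 siRNA, RPL9 siRNA and NC were 4723, 9280 and 7649 RPKM. For HT29 they were 4754, 10530 and 16205 RPKM. RPL9 and RPL17 differed less between the siRNAs not aimed at them. Line identity was visible too: 31 genes were at 100 RPKM or more in all 4 HT29 libraries and under 2% of that in HCT116, and 1 gene was so in HCT116. Of 11 colon epithelium markers, 9 had a median of at least 10 RPKM over the 8 libraries, CDX1 was near 0, and CDH17 was at no more than 8.3 RPKM. Of those 9, KRT20, VIL1 and LGALS4 were low in HCT116, at no more than 16.3 RPKM in any library, while EPCAM, KRT8, KRT18, KRT19 and CDH1 were at 268.2 RPKM or more in all 8. CDX2, the last of the 9, was at 8.0 to 18.8 RPKM. LYZ, on the leukocyte list, was at 1844 to 3001 RPKM in HT29 and at most 14.4 RPKM in HCT116. CD68, on the same list, was at 32.2 to 84.4 RPKM over the 8 libraries. COL1A1, on the list of fibroblast and stroma markers, was at 251.8 to 437.5 RPKM. The HT29 NC library stood apart. For each library, the deviation of each gene from its mean over the other 7 libraries was set against transcript length, over 14110 genes. The rank correlation was -0.54 in the HT29 NC library and 0.12 to 0.23 in the other 7. The means to which those 7 were compared include the HT29 NC library. The HT29 RPL siRNA libraries correlated less with their own NC (Pearson r of 0.925 to 0.933 over genes on the log2 scale) than with the HCT116 RPL siRNA libraries (0.942 to 0.955). After the correction for length described next, the ranges overlapped, at 0.941 to 0.950 with their own NC and 0.942 to 0.955 with the HCT116 RPL siRNA libraries. The tests against NC are therefore given as deposited and after a correction of every library for transcript length. What sets that library apart was not tested.

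The promoters of the 10 genes were searched for the p53 consensus half-site, in pairs at most 1 base apart, on both strands, from 250 bases before to 50 bases after each RefSeq transcription start (GRCh38.p14). A pair was counted only where both half-sites kept the fixed C and G of the consensus, so the best pair is the best under that rule. The shares over all promoter windows follow the same rule. A total of 12 windows of 8 genes were searched, and RRM2B and TP53INP1 were not. The best pair of each of 4 genes is shown because it is the closest to the consensus among them. The capitals mark the pair of half-sites, each sequence reads along the strand of its gene, and the single small letter inside the DDB2 pair is its spacer.

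DDB2 (chr11:47214975-47215004, plus strand): gtttGAACAAGCCCtGGGCATGTTTggcgg

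AEN (chr15:88621301-88621330, plus strand): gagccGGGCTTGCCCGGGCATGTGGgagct

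FDXR (chr17:74872991-74873020, minus strand): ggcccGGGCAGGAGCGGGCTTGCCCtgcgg

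SESN1 (chr6:109009013-109009042, minus strand): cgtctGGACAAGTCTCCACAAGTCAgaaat

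The DDB2 pair, at its second listed start, had 0 mismatches to the consensus, which 0.0199% of the 35116 RefSeq promoter windows reached. The AEN pair had 2 mismatches, and 0.533% of windows had a pair with at most 2. The pairs of FDXR and of the third SESN1 start had 3 mismatches, and 2.38% of windows had at most 3. These shares are per single window, while the pairs of DDB2, FDXR and SESN1 are each the best over several windows of the gene. The best pairs of C12orf5 and POLH had 6 mismatches, as few as or fewer than which were found in 42.7% of windows, and those of XPC and TP53I3 had 9 and 10. Of the 4 genes shown, AEN was above NC in all 6 RPL siRNA libraries as deposited. SESN1 was above NC in all of them but the RPL17 library of HCT116. DDB2 and FDXR were above NC in HCT116 and below it in HT29. A match is a description of the letters and not a measured binding site.

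Of the 10 genes, 5 passed the test as higher under the RPL siRNAs after length correction, where 2.76% of all genes did. One of them, C12orf5, also passed on the values as deposited, where 0.105% did. In the plot of RPKM by library, 7 of the 10 stood above NC under all 3 RPL siRNAs in both lines, where 18% of all genes did. DDB2 and FDXR stood above NC in HCT116 only and below it in HT29. The tests below were made with limma across all genes, on log2(RPKM + 1), with terms for line and siRNA. A gene is said to have risen or fallen where its p value, adjusted over all genes by the Benjamini-Hochberg method, was under 0.05. Log2 differences are the mean of the 3 RPL siRNAs minus NC unless said otherwise, and the lines serve as the replicates. Levels were not compared between genes, because the deposited values appear to scale with the number of exons as well as with reads per length.

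**Figure D1:**
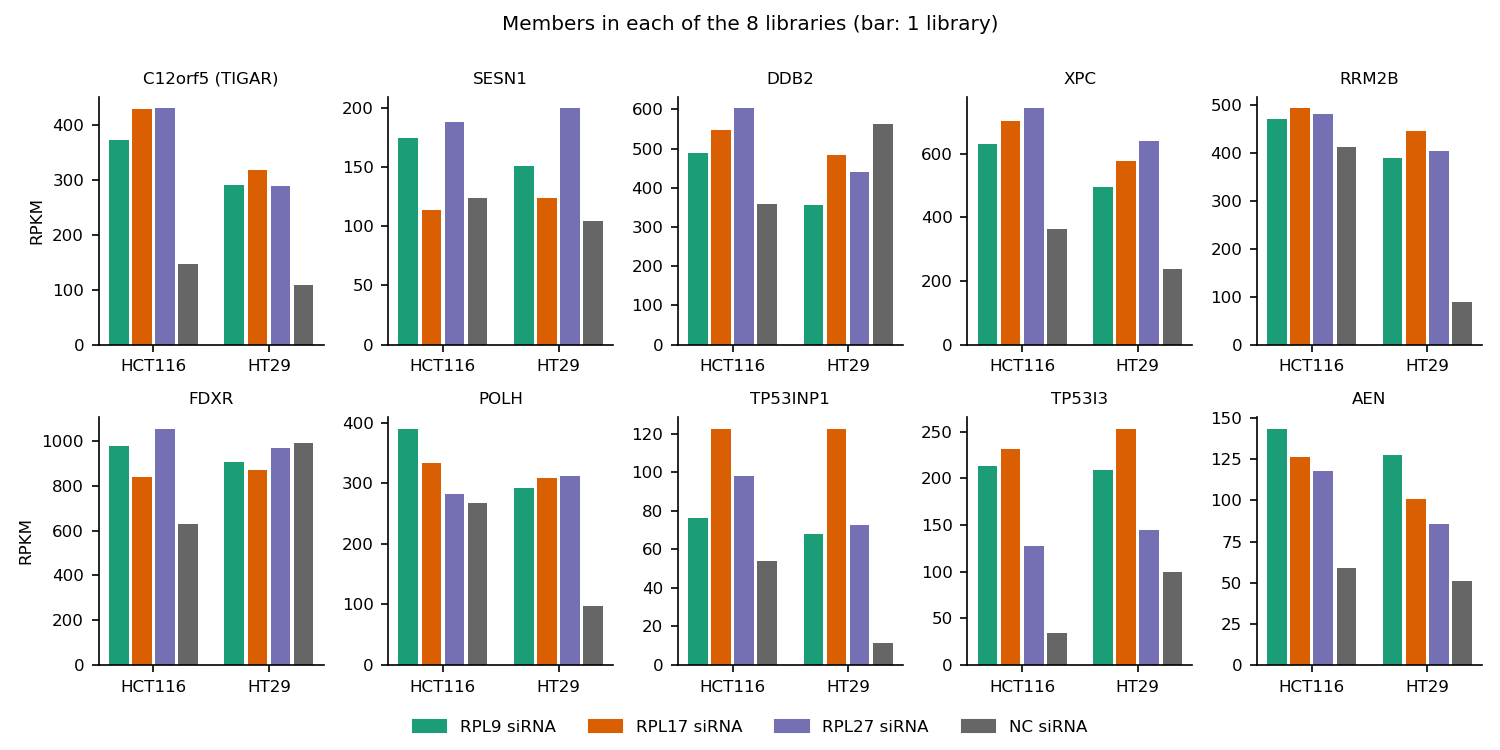
RPKM of the 10 genes in each library, with 1 bar per library and the 4 siRNAs side by side within HCT116 and HT29; each gene has its own axis from 0. C12orf5, XPC, TP53I3, TP53INP1, POLH, RRM2B and AEN have all 3 RPL siRNA bars above the NC bar in both lines, and DDB2 and FDXR do in HCT116 only.

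Among the genes of metabolism, C12orf5 and TP53I3 stood above NC in all 6 RPL siRNA libraries. C12orf5 encodes TIGAR, a phosphatase-like protein that lowers glycolytic flux and sends sugar into the pentose phosphate pathway. In HCT116 it was at 371.8, 429.1 and 429.5 RPKM under RPL9, RPL17 and RPL27 siRNA, against 146.5 RPKM under NC. The HT29 libraries were at 289.7, 317.5 and 288.3 RPKM, against 109.3 RPKM under NC. All 6 RPL siRNA libraries lay 2.54-fold to 2.93-fold above the NC of their line. In such bulk libraries, more RNA per cell and a larger share of cells with that RNA cannot be told apart. C12orf5 rose by 1.46 on the log2 scale (SE 0.15, adjusted p = 0.0490, limma), and by 1.38 after length correction (SE 0.14, adjusted p = 0.0134, limma). Its call on the values as deposited is close to the threshold. Over 21 settings the log2 difference ran from 1.26 to 1.49, and the adjusted p reached 0.298 (limma). It was not called when any 1 of the 6 RPL siRNA libraries was left out.

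TP53I3 encodes a quinone oxidoreductase linked to reactive oxygen species. In HCT116 it was at 213.1, 231.3 and 128.0 RPKM under RPL9, RPL17 and RPL27 siRNA, against 34.2 RPKM under NC, and in HT29 at 209.5, 253.5 and 145.2 RPKM, against 99.9 RPKM. All 6 libraries lay above their NC, by 3.74-fold to 6.76-fold in HCT116 and by 1.45-fold to 2.54-fold in HT29. The log2 difference of 1.69 (SE 0.34) did not pass as deposited (adjusted p = 0.0869, limma). After length correction TP53I3 rose by 1.95 (SE 0.21, adjusted p = 0.0147, limma). The transcript listed for it has 747 bases, at percentile 4.74 of the genes with a length, and its longest transcript has 1998 bases. With the longest transcript of each gene in the correction, TP53I3 rose by 1.81 (SE 0.27, adjusted p = 0.0211, limma).

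SESN1 encodes sestrin 1, a stress-induced inhibitor of mTORC1 signalling. It was at 174.4, 113.3 and 187.7 RPKM under RPL9, RPL17 and RPL27 siRNA in HCT116, against 123.4 RPKM under NC. The HT29 libraries were at 150.6, 124.2 and 199.5 RPKM, against 104.7 RPKM under NC. The RPL17 libraries were the lowest of the 3 in both lines, and in HCT116 the RPL17 library lay under NC. The log2 difference of 0.44 (SE 0.18, adjusted p = 0.205, limma) did not pass, nor did 0.38 after length correction (adjusted p = 0.167).

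FDXR encodes the mitochondrial ferredoxin reductase, which passes electrons from NADPH to ferredoxin for steroid and iron-sulfur cluster synthesis. FDXR in HCT116 was at 980.9, 839.5 and 1057 RPKM under RPL9, RPL17 and RPL27 siRNA, against 630.7 RPKM under NC. FDXR in HT29 was at 907.1, 873.7 and 972.1 RPKM, against 991.7 RPKM under NC. The HCT116 libraries were all above their NC and the HT29 libraries all below theirs, the nearest by -0.029 on the log2 scale. The log2 difference over both lines was 0.24 (SE 0.20, adjusted p = 0.462, limma), and 0.29 after length correction (SE 0.16, adjusted p = 0.290). After that correction the RPL27 library of HT29 lay above NC, by 0.044.

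Of the genes of nucleotide excision repair, XPC stood above NC in all 6 libraries and DDB2 in the 3 of HCT116. XPC encodes the factor that first recognises helix-distorting damage. It was at 631.6, 702.8 and 742.5 RPKM under RPL9, RPL17 and RPL27 siRNA in HCT116, against 363.4 RPKM under NC. In HT29 it was at 496.9, 576.1 and 639.0 RPKM, against 239.0 RPKM. The order RPL27, RPL17, RPL9 from high to low held in both lines. The log2 difference was 1.08 (SE 0.15, adjusted p = 0.0662, limma), and XPC rose by 0.87 after length correction (SE 0.12, adjusted p = 0.0205, limma). Its deposited accession is not in the reference tables, so its length was taken by symbol.

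DDB2 encodes the small subunit of the UV-damage binding complex, which hands lesions to XPC. DDB2 in HCT116 was at 489.5, 547.5 and 602.9 RPKM under RPL9, RPL17 and RPL27 siRNA, against 358.8 RPKM under NC. DDB2 in HT29 was at 355.3, 482.9 and 441.0 RPKM, against 562.7 RPKM under NC. The 3 RPL siRNA libraries of HCT116 were all higher than their NC, and the 3 of HT29 all lower than theirs. The log2 difference over both lines was 0.09 (SE 0.26, adjusted p = 0.832, limma), and its sign turned with quantile normalization (-0.016) and with median-centring (-0.10). After length correction it was 0.16 (SE 0.21, adjusted p = 0.644, limma), with an HT29 mean of -0.28. Without the HT29 NC library the log2 difference of DDB2 was 0.60, and without the HCT116 NC library it was -0.41. These equal its mean differences from NC within HCT116 and within HT29, each against 1 NC library.

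RRM2B encodes the p53-inducible small subunit of ribonucleotide reductase, which makes deoxynucleotides outside S phase. RRM2B in HCT116 was at 469.0, 492.2 and 480.7 RPKM under RPL9, RPL17 and RPL27 siRNA, against 411.6 RPKM under NC. RRM2B in HT29 was at 388.6, 444.0 and 403.4 RPKM, against 88.3 RPKM under NC. The 6 RPL siRNA libraries and the HCT116 NC library lay close together, and the HT29 NC library lay far below them. The folds over NC were 1.14 to 1.20 in HCT116 and 4.40 to 5.03 in HT29. The log2 difference over both lines was 1.21 (SE 0.43, adjusted p = 0.171, limma). Its size after length correction depends on the transcript assumed: 1.34 with the listed one of 1613 bases and 0.88 with the longest one of 4931 bases, neither of which passed (adjusted p = 0.116 and 0.0874).

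POLH encodes DNA polymerase eta, which copies past ultraviolet-induced dimers. POLH in HCT116 was at 390.0, 333.5 and 281.5 RPKM under RPL9, RPL17 and RPL27 siRNA, against 267.9 RPKM under NC. POLH in HT29 was at 292.1, 309.3 and 312.6 RPKM, against 97.6 RPKM under NC. All 6 lay above their NC, by 1.05-fold to 1.46-fold in HCT116 and 2.99-fold to 3.20-fold in HT29. The log2 difference was 0.97 (SE 0.32, adjusted p = 0.159, limma), and 0.80 after length correction (SE 0.23, adjusted p = 0.0882), so neither passed.

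TP53INP1 encodes a nuclear stress protein with roles in autophagy and apoptosis. In HCT116 it was at 76.0, 122.3 and 98.1 RPKM under RPL9, RPL17 and RPL27 siRNA, against 54.0 RPKM under NC. In HT29 it was at 68.1, 122.6 and 72.5 RPKM, against 11.5 RPKM under NC. The RPL17 libraries were the highest in both lines, and the HT29 NC library was the lowest of all 8. The log2 difference was 1.81 (SE 0.45, adjusted p = 0.111, limma), and TP53INP1 rose by 1.37 after length correction (SE 0.26, adjusted p = 0.0365, limma). Its listed transcript, of 5631 bases, is the longest of the 10. In HT29 the correction took its mean log2 difference to 1.85, against 2.78 as deposited.

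AEN encodes an apoptosis-enhancing nuclear exonuclease. In HCT116 it was at 143.7, 126.3 and 118.0 RPKM under RPL9, RPL17 and RPL27 siRNA, against 59.0 RPKM under NC, and in HT29 at 127.8, 100.9 and 85.7 RPKM, against 51.3 RPKM. All 6 libraries lay 1.67-fold to 2.49-fold above NC, with RPL9 the highest and RPL27 the lowest in both lines. The log2 difference was 1.06 (SE 0.18, adjusted p = 0.0760, limma), and AEN rose by 0.94 after length correction (SE 0.19, adjusted p = 0.0382, limma).

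**Figure D2:**
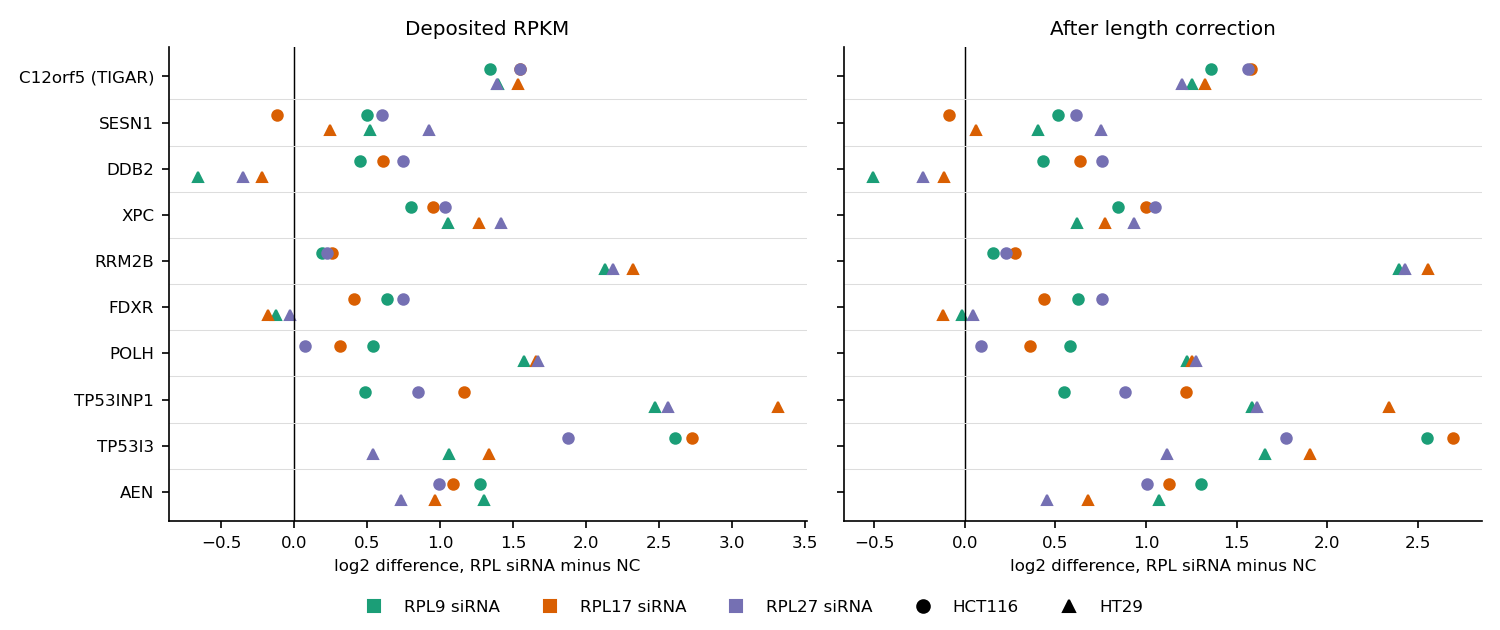
Log2 difference of each RPL siRNA library from the NC library of its line, as deposited on the left and after length correction on the right, with circles for HCT116 and triangles for HT29. C12orf5 and AEN lie together in both lines, RRM2B, POLH and TP53INP1 lie further right in HT29, TP53I3 lies further right in HCT116, and DDB2 lies on either side of 0.

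Counted over the 10 genes, 1 rose and none fell as deposited, where 0.105% of the 14281 genes tested rose. Unadjusted p was under 0.05 for 7 of the 10, and for 3506 genes in all. After length correction 5 rose (C12orf5, XPC, TP53INP1, TP53I3 and AEN), where 2.76% of 14110 genes did. With the longest transcript in the correction 5 rose, where 3.52% of genes did. Without the HT29 NC library 7 rose, DDB2 and FDXR among them, where 6.91% of genes did, and without the HCT116 NC library 8 rose, where 31% of genes did. Each of these last fits keeps 1 NC library and takes its spread to be like that of the others. DDB2 and FDXR went the other way without the HCT116 NC library, with log2 differences of -0.41 and -0.11. With all 8 libraries the median log2 difference of the 10 was 1.07, against 0.10 over all genes, and after length correction 0.91, against 0.00.

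Against NC within a line there was 1 library a side, so the folds are descriptions. In HCT116 9 of the 10 genes stood above NC under all 3 RPL siRNAs, SESN1 being the exception, where 33% of all genes did. In HT29 8 of the 10 did, where 46.6% of genes did, and in both lines 7 did, where 18% of genes did. After length correction the counts were 9, 8 and 7, where 34.8%, 36% and 16% of genes did. At 1.5-fold or more under all 3 RPL siRNAs, 4 genes passed in HCT116 (C12orf5, XPC, TP53I3 and AEN), where 6% of genes did. In HT29 6 passed (C12orf5, XPC, RRM2B, POLH, TP53INP1 and AEN), where 26.6% did. C12orf5, XPC and AEN passed in both lines, where 2.3% of genes did. After length correction the same 4 passed in HCT116, where 6.26% of genes did. In HT29 6 passed, with TP53I3 in place of AEN, where 15.2% did, and C12orf5, XPC and TP53I3 passed in both lines, where 1.87% did.

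Tested 1 siRNA at a time over both lines, no gene of the 10 passed as deposited. Across all genes RPL9 siRNA gave calls in 0.007%, RPL17 siRNA in 0.014% and RPL27 siRNA in 0% (limma), while unadjusted p was under 0.05 for 6 of the 10 with each siRNA and for 2913, 2247 and 2390 genes in all. After length correction C12orf5, TP53I3 and AEN rose under RPL9 siRNA, where 1.59% of genes rose. C12orf5 and TP53I3 rose under RPL17 siRNA, where 0.262% of genes rose, and C12orf5 and XPC under RPL27 siRNA, where 0.56% did. These 3 contrasts share their NC libraries.

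The effect of the RPL siRNAs differed between the lines for 4 of the 10 genes as deposited, and for RRM2B alone after length correction. The difference was tested with an interaction of line with any RPL siRNA, which uses the 3 RPL siRNA libraries within a line in place of replicates and rests on 1 NC library per line. RRM2B differed by -1.98 (HCT116 minus HT29, SE 0.20, adjusted p = 0.00088, limma), POLH by -1.32 (SE 0.28, adjusted p = 0.0139) and TP53INP1 by -1.95 (SE 0.56, adjusted p = 0.0409), each with the larger difference from NC in HT29. DDB2 differed by 1.01 (SE 0.28, adjusted p = 0.0389, limma), with the higher value in HCT116. This count of 4 is to be read against the 22.9% of all genes that differed. FDXR, at 0.71 (SE 0.22, adjusted p = 0.0507, limma), and TP53I3, at 1.42 (SE 0.56, adjusted p = 0.110), did not pass. After length correction RRM2B differed by -2.24 (adjusted p = 0.00284, limma), where 7.53% of genes differed, and with the longest transcripts by -1.23 (adjusted p = 0.0193), where 6.03% did. C12orf5 differed by 0.04 (SE 0.23, adjusted p = 0.931, limma).

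The lines lay closer together under the RPL siRNAs than under NC for 8 of the 10 genes, near the 74.4% of all genes for which they did. Under NC the ratio of HCT116 to HT29 ran over the 10 genes from 0.343 for TP53I3 to 4.71 for TP53INP1, with RRM2B at 4.66, POLH at 2.75, and DDB2 and FDXR at 0.638 and 0.636. Under the RPL siRNAs the ratio of the means ran from 0.941 for TP53I3 to 1.37 for C12orf5. All 10 genes were within 1.5-fold between lines under the RPL siRNAs, where 80.1% of all genes were. Under NC 3 of the 10 were (C12orf5, SESN1 and AEN), where 42.9% of all genes were. The part of the HT29 NC library's dependence on length in these ratios was not tested beyond the correction above.

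Among the 6 RPL siRNA libraries alone, which leave NC out, 3 genes were higher in HCT116 than in HT29. C12orf5 was higher by 0.46 (SE 0.08, adjusted p = 0.0150, limma), DDB2 by 0.36 (SE 0.09, adjusted p = 0.0324) and XPC by 0.28 (SE 0.07, adjusted p = 0.0314). Over all genes 22.9% differed between the lines here too, so 3 of 10 is near the background. Leaving out any 1 of the 6 libraries left 0 or 1 of these calls, and none was made without the filter on low values. DDB2 was thus higher in HCT116 under the RPL siRNAs and, at 358.8 RPKM in HCT116 against 562.7 RPKM in HT29, lower there under NC.

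Between the 3 RPL siRNAs, 1 gene of the 10 passed a test. TP53I3 was lower under RPL27 siRNA than under the other two, by -0.73 on the log2 scale (SE 0.10, adjusted p = 0.0426, limma), with 128.0 RPKM in HCT116 and 145.2 RPKM in HT29 as the lowest of each line's 3. In this contrast 1.25% of all genes passed, and the call was not made when any 1 of the 6 libraries was left out. For RPL9 and RPL17 siRNA against the other two, none of the 10 passed, where 0.707% and 0.42% of genes passed (limma). Unadjusted p was under 0.05 for 4 of the 10 in each of these contrasts, and for 2914 and 2574 genes in all. The largest of those differences were 0.65 for TP53INP1 under RPL17 siRNA (SE 0.15, adjusted p = 0.113, limma) and -0.57 for SESN1 under RPL17 siRNA (SE 0.12, adjusted p = 0.102).

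The order of the 3 RPL siRNAs was the same in both lines for 7 of the 10 genes, namely SESN1, XPC, RRM2B, FDXR, TP53INP1, TP53I3 and AEN, where 30.3% of all genes kept their order. The same 7 had the same highest siRNA, where 49.8% of genes did. That siRNA was RPL27 for SESN1, XPC and FDXR, RPL17 for RRM2B, TP53INP1 and TP53I3, and RPL9 for AEN. POLH had opposite orders in the lines, with RPL9 highest in HCT116 and RPL27 highest in HT29.

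**Figure D3:**
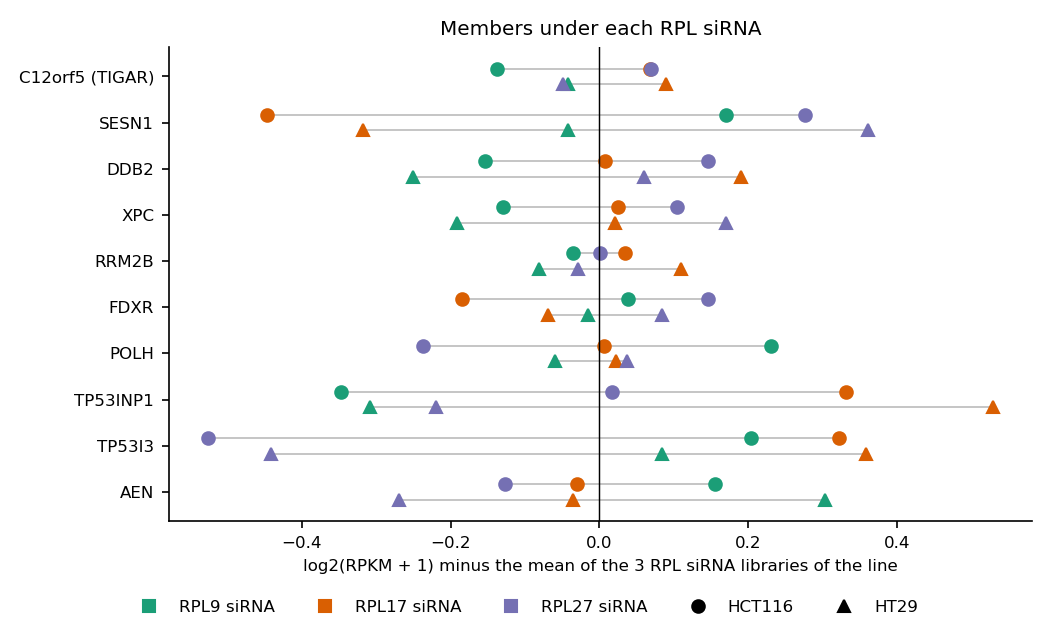
Log2(RPKM + 1) of each gene under each RPL siRNA minus the mean of the 3 RPL siRNA libraries of that line, with circles for HCT116 and triangles for HT29. TP53I3 is lowest under RPL27 siRNA and SESN1 lowest under RPL17 siRNA in both lines, while C12orf5 and RRM2B stay near 0.

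Other p53 targets and the pathways in which the 10 genes act were followed as lists, which are described by counts and medians. All lists were chosen with earlier results of these data known, so their counts are not an independent test. Of 31 other p53 targets tested, 5 rose and none fell as deposited, with a median of 0.90, where 0.105% of all genes rose. After length correction 16 rose and none fell, where 2.76% of genes rose and 460 of 14110 fell. The 5 were CDKN1A, which blocks the cell cycle (2.16, adjusted p = 0.0222), PLK2, a polo-like kinase (1.67, adjusted p = 0.0222), BTG2, an antiproliferative factor (2.17), FAS, a death receptor (2.11), and KIAA0247 (2.35), the last 3 with an adjusted p of 0.0483 (limma). MDM2 stood at 5026, 3774 and 3696 RPKM under RPL9, RPL17 and RPL27 siRNA in HCT116, against 986.4 RPKM under NC. In HT29 it stood at 3646, 2622 and 2702 RPKM, against 167.6 RPKM. Its log2 difference of 3.10 did not pass as deposited (adjusted p = 0.0662, limma), and ZMAT3, an RNA-binding protein, was at 2.79 (adjusted p = 0.111).

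In the lists of partners of the 10 genes, no gene passed as deposited. Their counts after length correction are to be read against all genes, of which 2.76% rose and 460 of 14110 fell. Beside XPC and DDB2, 25 other genes of nucleotide excision repair had a median of 0.12, and after length correction 1 rose and 3 fell. RPA3, of the single-strand binding complex, was at -1.37 and UVSSA at 0.93. Beside POLH, 15 genes of translesion synthesis and post-replication repair had a median of 0.04, with 1 that fell after length correction. MAD2L2, of polymerase zeta, was at -1.19 and SHPRH at 1.13.

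Beside RRM2B, 13 genes of deoxynucleotide supply had a median of -0.44, against 0.10 over all genes. After length correction 5 fell and none rose, where 460 of 14110 genes fell. TK1, thymidine kinase, was at 776.1, 981.6 and 748.5 RPKM under RPL9, RPL17 and RPL27 siRNA in HCT116, against 1814 RPKM under NC. In HT29 it was at 854.0, 810.9 and 640.3 RPKM, against 2645 RPKM. TK1 fell by 1.34 on the log2 scale after length correction (adjusted p = 0.0164, limma), and DUT, the dUTPase, fell by 1.35 (adjusted p = 0.0322). RRM2, the S-phase counterpart of RRM2B, fell by 0.58 (adjusted p = 0.0376), and RRM1, their common partner, fell by 0.63 (adjusted p = 0.0346). The fifth was TYMS, thymidylate synthase, which fell by 0.70 (adjusted p = 0.0247). RRM2B lay above NC in all 6 RPL siRNA libraries and these 5 below it.

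Beside C12orf5, 18 genes of glycolysis and the pentose phosphate pathway had a median of 0.04, and 2 rose and 1 fell after length correction. PFKFB2, which makes the sugar phosphate that TIGAR breaks down, was at 2.02 (adjusted p = 0.111, limma) and rose by 1.86 after length correction (adjusted p = 0.0451). HK2, a hexokinase, was at 0.77. Beside SESN1, 24 genes of sestrin, mTORC1 and AMPK signalling had a median of 0.18, with 1 that rose and 1 that fell after length correction. The AMPK subunits PRKAA2 and PRKAB2 were at 1.63 and 1.05, and SESN2, the paralog of SESN1, was at 0.03 (adjusted p = 0.934, limma).

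Beside FDXR, 15 genes of mitochondrial ferredoxin and iron-sulfur clusters had a median of -0.10, with 1 that rose after length correction; ISCA2 was at -0.86 and GLRX5 at -0.71. Beside TP53INP1, 13 genes of autophagy had a median of 0.21, with 1 that rose after length correction. It was SQSTM1, an autophagy receptor, at 1.09 as deposited (adjusted p = 0.0662, limma) and 1.08 after correction (adjusted p = 0.0164), and DRAM1 was at 0.54. A list of 14 exonucleases and paralogs of the 10 genes had a median of -0.36, with ISG20L2 at 0.99 and TREX1 at -1.20, and 1 rose and 1 fell after length correction. Of 14 regulators of p53, MDM2 included, the median was 0.22, HIPK2 was at 1.82, and 1 rose and 1 fell after length correction.

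**Figure D4:**
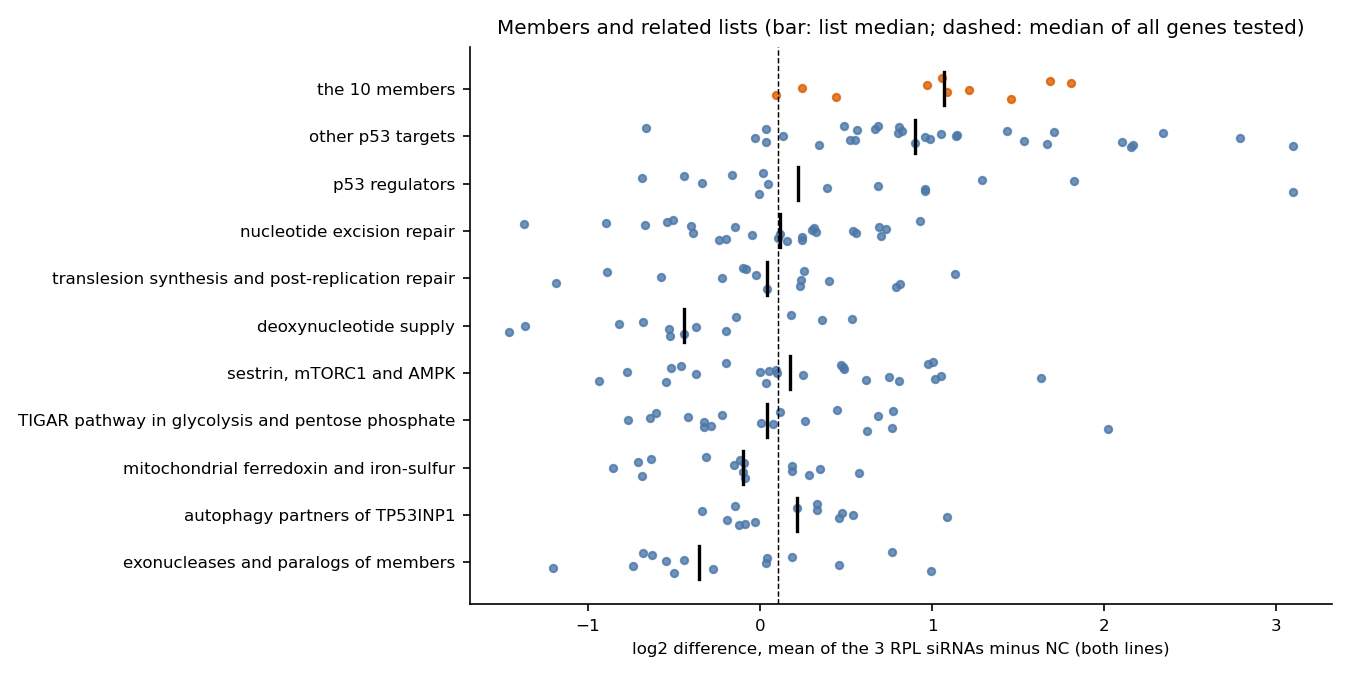
Log2 difference of the mean of the 3 RPL siRNAs minus NC over both lines, with 1 point per gene; the bars mark list medians and the dashed line the median of all genes tested. The 10 genes (median 1.07) and the other p53 targets (0.90) lie right of the dashed line at 0.10, and deoxynucleotide supply (-0.44) lies left of it.

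The 10 genes also differed in how closely they followed one another. Over the 8 libraries, centred on each line's mean, C12orf5 had a Pearson r of 0.98 with the mean of the other 9 genes, XPC 0.96 and AEN 0.88. TP53I3, TP53INP1, POLH and RRM2B were at 0.79, 0.78, 0.73 and 0.70. SESN1 was at 0.54, FDXR at 0.44 and DDB2 at 0.075. A total of 11514 genes, the 10 included, averaged 10 RPKM or more. Outside the 10, the 6 most like their mean profile were KIAA0247 (r = 0.996), PLAU and CMBL (0.993), CDKN1A (0.992), SUPT7L (0.991) and ZNF276 (0.990). After length correction CDKN1A, ZNF276, PLAU and CMBL were again among the first 6, with LETM2 and ZNF776. These libraries share their NC within a line, so the correlations are descriptions over 8 points in which NC stands apart.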

How the data were processed

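Values were RPKM, 1 per gene symbol and library, as deposited by the authors. Per the submitters' processing notes, CASAVA 1.8.2 made the base calls and TopHat2 2.0.9 the alignments, on hg19. The counting of reads per gene is not stated in the labels. Summed over genes, RPKM times kb of transcript came to 21.8 to 22.2 M per library (17.3 M in HT29 NC), and divided by exon number to 1.71 to 1.79 M. The read depth is not in the files; a rough estimate from the steps of low values was 20.8 to 26.6 M reads, and no counting interval was computed.

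log2(RPKM + 1) of 14281 genes averaging 1 RPKM or more was fitted with limma 3.58.1 (trend) in R 4.3.3, with terms for line and siRNA (3 residual degrees of freedom). The 6 RPL siRNA libraries were fitted alone for contrasts between lines and siRNAs (2 residual degrees of freedom). Tests were two-sided. Nothing in the labels says that libraries were separate cultures beyond line and siRNA, so p values measure the spread between lines or siRNAs. Length correction subtracted a spline (5 degrees of freedom) of each library's deviation on log2 transcript length, from GENCODE v29 by accession or symbol. Scripts were tested on simulated data. Named genes were the 10, in each list those past the threshold and the 2 of largest difference, and the 6 most alike; RRM2, RRM1, TYMS and SESN2 were added after their values were seen. The 10 genes and all lists were chosen with earlier results of these data known. Promoter sequences are from RefSeq.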

Additional observations from a re-analysis of the deposited data

Results flagged for a closer look

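The RPL siRNA effect differed between lines for 4 genes by the test of the difference itself (HCT116 minus HT29, log2): RRM2B by -1.98, TP53INP1 by -1.95, POLH by -1.32 and DDB2 by 1.01. Over all genes 22.9% differed in this test. After length correction RRM2B alone kept the call, and DDB2, POLH and TP53INP1 did not pass (adjusted p = 0.0961, 0.0995 and 0.310, limma). FDXR is listed because as deposited each of its 3 HCT116 RPL siRNA libraries lay above NC and each of its 3 HT29 ones below. Its difference of 0.71 had an adjusted p of 0.0507 (limma). After length correction its RPL27 library of HT29 lay above NC, by 0.044, and the difference between lines was 0.64 (adjusted p = 0.117, limma).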

How the results depend on the processing

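Over 200 alternatives for single genes in the mean contrast, 158 kept direction and side of the threshold, 14 lost the call, 24 gained it and 4 turned sign; of 160 for the line difference these were 123, 22, 8 and 7. The counts for the mean contrast include fits that keep 1 NC library. As deposited 1 of the 10 genes rose. With pseudocounts 0.1 and 5, no filter, quantile normalization, median-centring, no trend, robust variances or no line term it was 0. With any RPL siRNA against NC it was 4, with either length correction 5, and with any 1 RPL siRNA library left out 0. The median of the 10 ran from 0.72 (without HT29 NC) to 1.12. Single siRNAs against NC gave 3, 2 and 2 calls for RPL9, RPL17 and RPL27 after length correction, 4, 1 and 2 with the longest transcripts (an alternative chosen after seeing the data), and with 1 library left out 0 to 9, 0 to 7 and 0 to 8. The line difference had 4 calls, but 2 without the filter or the trend, 1 after either length correction, and 2 to 4 with 1 library left out; without an NC library it could not be fitted. HCT116 against HT29 under RPL siRNAs had 3 calls, but 0 without the filter or the trend or with all 8 libraries, and 0 to 1 with 1 library left out. RPL27 siRNA against the other two had 1, but 0 with pseudocount 0.1, without the filter or the trend, with all 8 libraries, or with 1 library left out (0 to 0).

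Signs turned for DDB2 in the mean contrast with quantile normalization (-0.016) and median-centring (-0.10), and it ran from -0.41 to 0.60 with 1 library left out; FDXR ran from -0.11 to 0.60. In the line difference SESN1 turned to 0.19 (quantile normalization), 0.21 (median-centring) and 0.088 (longest transcripts), and XPC to 0.12 (median-centring), 0.19 (length correction) and 0.10 (longest transcripts). AEN ran from -0.017 to 0.27 with 1 library left out. Apart from length and library number, the cause was not tested. The fit as reported already blocks on line, setting each RPL siRNA against the NC of its own line; without that term C12orf5 had an adjusted p of 0.121 (limma). There are no replicates within a line to pair further. Read depth is unknown, and with 3 residual degrees of freedom small differences are not resolved.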
